A study of Mus musculus with 18 samples.

Results

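The genes followed here build, cross-link, degrade or mark the extracellular matrix of the heart. They were chosen by gene symbol: collagen chains, the laminin, fibulin, fibrillin, matrix metalloproteinase (Mmp), tissue inhibitor of metalloproteinases (Timp) and lysyl oxidase (Lox) families, and the single genes Fn1, Eln, Sparc, Dcn, Bgn, Lum, Tnc, Mgp, Vim, Ddr2, Pdgfra and Tcf21, each with a value on 9 or more of 18 arrays. Of 61 such genes on the array, 48 met that minimum, among 8410 named genes that did. Col15a1, Col12a1, Col9a1 and Mmp7 had no value, and Col11a2, Col18a1, Col6a4, Col6a5, Col8a2, Lama1, Lama3, Lamc3 and Mmp16 had values on 1 to 8 arrays. A gene was tested only if it had a value in each of the 9 groups of arrays, which 42 of the 48 did. Col11a1, Col27a1, Col2a1, Mmp19, Timp4 and Lox were described without a test.

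The hearts came from mice exposed to chronic constant hypoxia (CCH), to chronic intermittent hypoxia (CIH) or kept as controls, and were taken after 1, 2 or 4 weeks. Every cDNA array carried 2 colours, Cy5 for a male heart and Cy3 for a female heart of the same condition and duration, and each of the 9 groups had 2 arrays. Strain, age and oxygen level are not given in the sources used here. Nothing in the labels tells separate animals from repeat hybridisations, and the p-values therefore measure only the spread between these arrays, which may be technical. A value was the log2 ratio of the colours, with the median of each array set to 0 and the spots of a gene averaged. Which colour was on top of the ratio is not stated. It was likely male over female, because the Y-linked gene Eif2s3y was above 0 on 17 of 18 arrays. Sex and dye cannot be told apart, since Cy5 was male on all 18 arrays, and a change of the ratio between conditions does not say in which sex a transcript changed. In whole heart, fewer cells of a type and less RNA per cell cannot be told apart either.

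The cardiac matrix is laid down mainly by fibroblasts. Fibrillar collagens give it tensile strength, small proteoglycans space the fibrils and bind growth factors, laminins and type IV collagen form the sheath around myocytes and vessels, and elastic fibres give recoil. Lysyl oxidases cross-link the fibres, metalloproteinases cut them and their inhibitors hold those enzymes in check, and the balance shifts toward collagen deposition in fibrosis.

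The upstream sequences of 4 genes whose ratio departed from 0 over all arrays are shown for orientation, because the spotted probes themselves were not used here: Bgn and Col6a1 with ratios below 0, Col3a1 and Col5a3 with ratios above it. Each run is the 250 bases before the transcription start in RefSeq GRCm38.p6, on the strand of the gene, at chrX:73483351-73483600 (plus strand), chr10:76726045-76726294 (minus strand), chr1:45311288-45311537 (plus strand) and chr9:20815068-20815317 (minus strand). RefSeq promoter entries were found for 28 of the 48 genes. Capitals mark the GC box GGGCGG, the TATA box TATAAA, the CCAAT box, and ACGTG and GCGTG, the core of the hypoxia response element, on either strand.
Bgn: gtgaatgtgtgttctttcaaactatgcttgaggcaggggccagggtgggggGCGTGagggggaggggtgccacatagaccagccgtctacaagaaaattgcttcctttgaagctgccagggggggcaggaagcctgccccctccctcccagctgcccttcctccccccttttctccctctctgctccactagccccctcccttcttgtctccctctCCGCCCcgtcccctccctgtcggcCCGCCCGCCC
Col6a1: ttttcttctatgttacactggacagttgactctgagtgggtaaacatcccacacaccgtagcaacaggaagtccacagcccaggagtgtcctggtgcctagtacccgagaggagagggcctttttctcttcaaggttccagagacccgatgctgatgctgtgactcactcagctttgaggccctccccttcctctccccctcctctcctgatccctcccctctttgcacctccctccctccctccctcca
Col3a1: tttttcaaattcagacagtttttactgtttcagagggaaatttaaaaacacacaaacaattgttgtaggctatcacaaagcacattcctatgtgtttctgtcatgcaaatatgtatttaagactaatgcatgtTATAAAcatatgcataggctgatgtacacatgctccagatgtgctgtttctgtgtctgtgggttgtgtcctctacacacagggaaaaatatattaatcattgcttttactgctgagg
Col5a3: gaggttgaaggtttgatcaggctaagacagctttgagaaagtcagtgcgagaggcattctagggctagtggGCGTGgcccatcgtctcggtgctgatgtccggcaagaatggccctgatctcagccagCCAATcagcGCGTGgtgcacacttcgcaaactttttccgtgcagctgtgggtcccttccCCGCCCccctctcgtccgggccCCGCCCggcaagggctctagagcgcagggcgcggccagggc
The Bgn sequence held 3 GC boxes on the minus strand and 1 GCGTG. The Col6a1 sequence held none of the 5 motifs, and that of Col3a1 held 1 TATAAA. It lies near the middle of the 250 bases, so it is a match of the letters and not a shown TATA box. The Col5a3 sequence held 2 GC boxes, 1 CCAAT box and 2 GCGTG. Among 32851 mouse promoters of the same length, 32.7% held a GC box, 12.4% TATAAA at any position, 33.8% a CCAAT box, 16.6% ACGTG and 28.2% GCGTG, so each motif was common.

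Arrays differed in coverage, and some were at odds with their labels. Spots with a value numbered 20489 to 24512 on the arrays of 1 week, 15802 to 19720 at 2 weeks and 12650 to 17904 at 4 weeks. Correlations between arrays over all spots ran between -0.54 and 0.76 with a median of 0.15, and 13 pairs lay below -0.3. The spread of ratios (median absolute deviation) ran from 0.30 to 0.72 in CCH, 0.31 to 0.62 in CIH and 0.18 to 0.55 in controls. The array CIH 1 week replicate 1 was titled so, but its source names gave 2 weeks of CCH, and it was grouped by its title. On CIH 4 weeks replicate 1, Eif2s3y was at -0.03 while the X-linked Kdm6a was at -0.68. On CCH 4 weeks replicate 1, Kdm6a was at 0.28, the only array of 18 where it was above 0, while Eif2s3y was at 1.16, and the spread of ratios was the widest (median absolute deviation 0.72). Without that array limma called 9 genes over all arrays, against 21.1% of units, and 3 in CCH (Fbn2, Col6a1 and Dcn), against 2.45%. Control 2 weeks replicate 1 carried the code 1A in its title, as did the control of 1 week. A ratio holds no level, so the heart origin could not be checked from the level of cardiomyocyte genes.

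The ratio departed from 0 in the matrix genes about as often as in the array as a whole. Over all arrays, limma called 12 of 42 genes at an adjusted p under 0.05, or 28.6%, against 27.7% of the 10272 units tested, a unit being a gene symbol or a spot without a single symbol. Bgn, Fbn2, Col6a1, Vim, Dcn, Loxl1, Mmp24, Lama2, Timp3 and Mmp23 were below 0, and Col5a3 and Col3a1 above it. The 10 genes below 0 were 23.8% of those tested, against 18.7% of units, and the 2 above 4.76%, against 8.99%. Of the 42 genes, 30 had a negative mean, 71.4% against 59.3% of all units, and their median was -0.084 against -0.040. Without CIH 1 week replicate 1 and CIH 4 weeks replicate 1, an alternative chosen after seeing the data, Bgn, Col5a3, Col6a1, Dcn, Fbn2 and Vim were called among 41 genes, against 16.7% of units. The heatmap of all genes and the plot of ranked means show the values behind these counts.

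**Figure D1:**
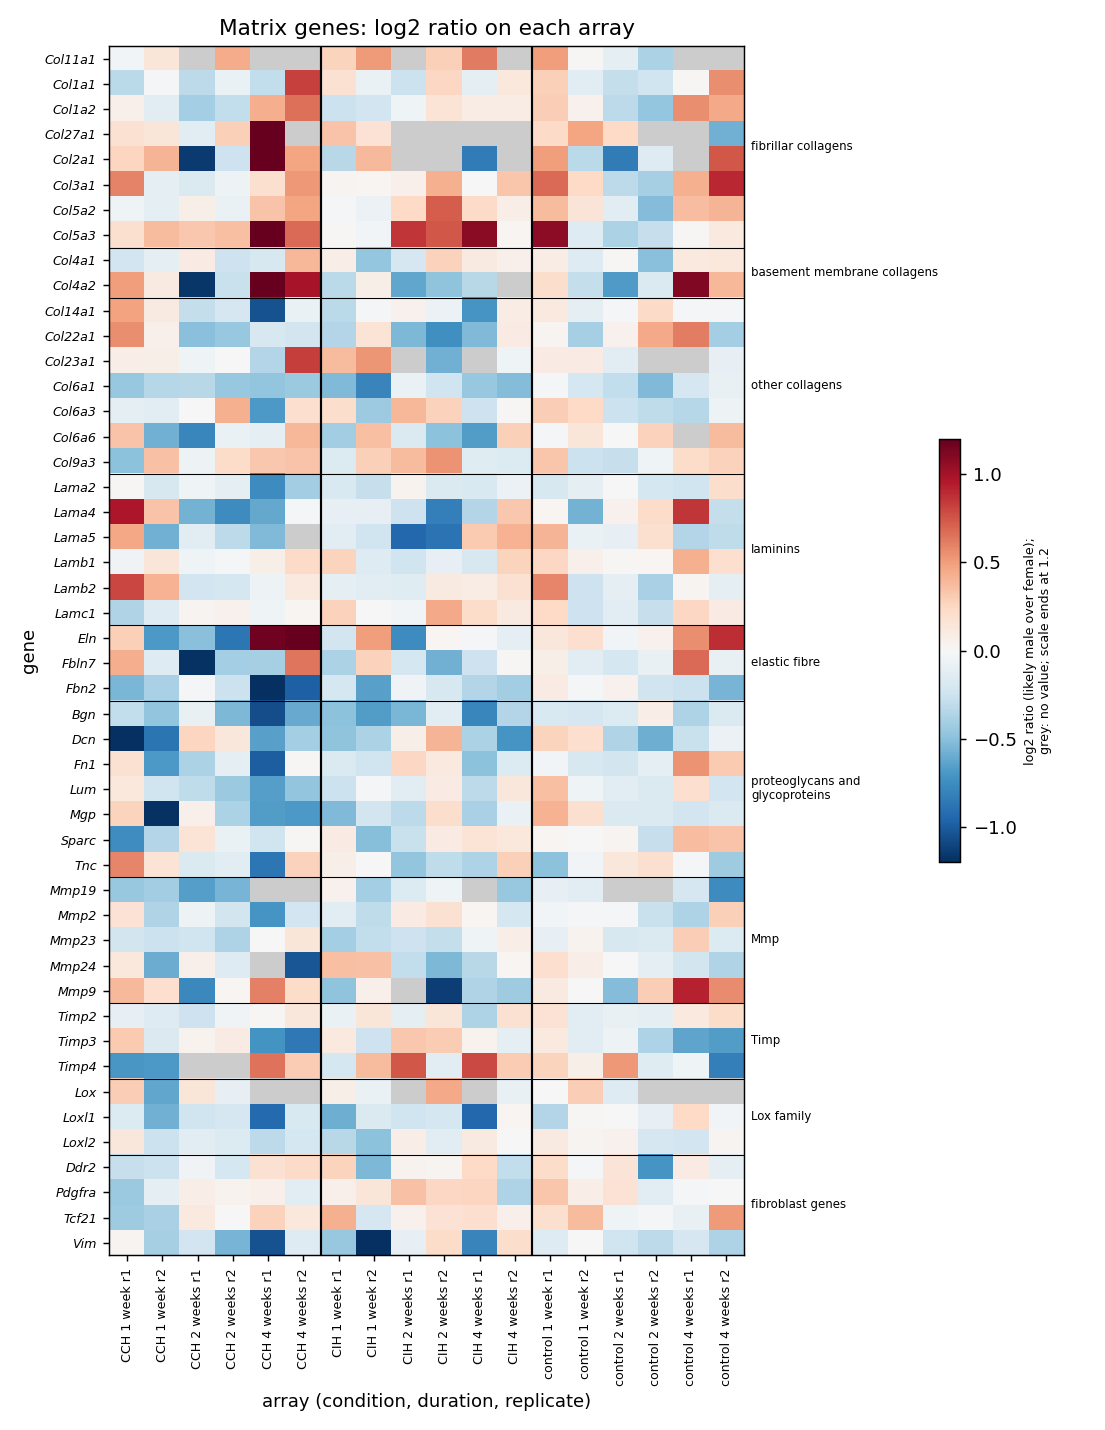
Log2 ratio (likely male over female, colour scale ending at 1.2) of the 48 matrix genes, in rows by class, on the 18 arrays, in columns by condition, duration and replicate; grey marks no value. Col6a1 is below 0 in every column, while most rows change sign between arrays of one condition.

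**Figure D2:**
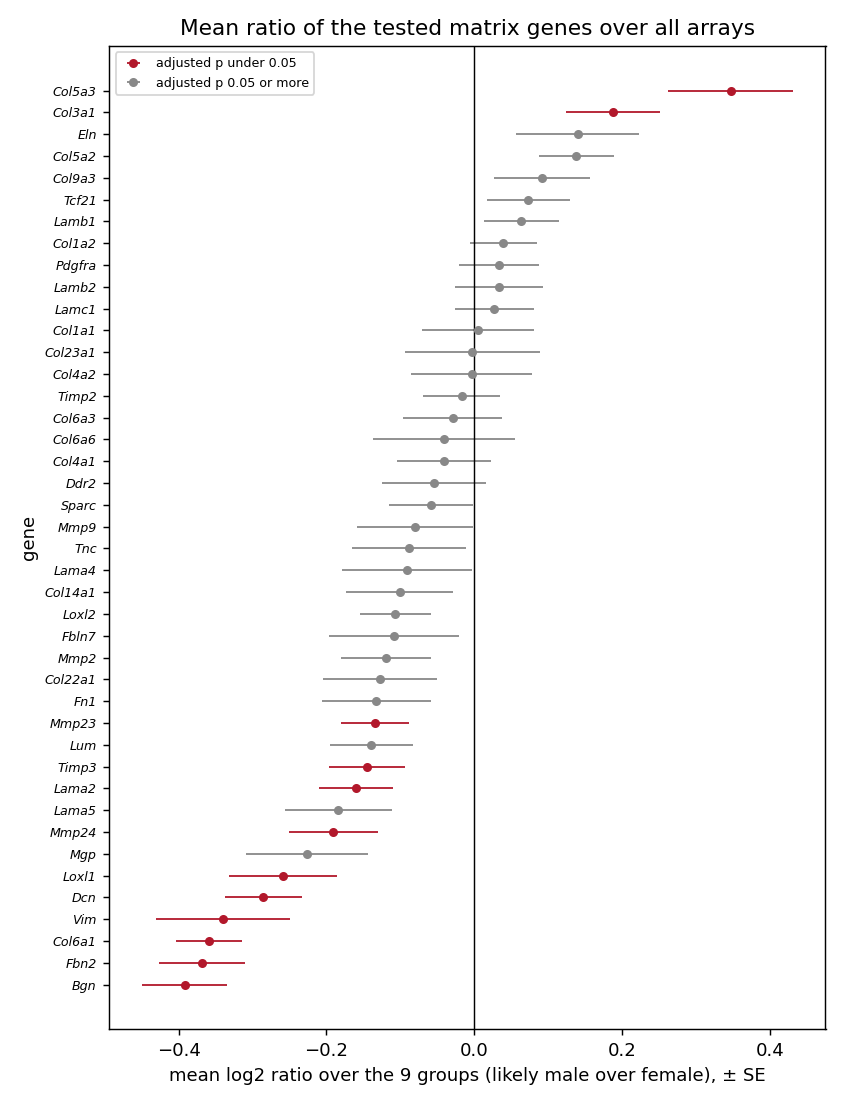
Mean log2 ratio over the 9 groups of arrays for the 42 tested genes, with bars of 1 SE from limma; red marks an adjusted p under 0.05. Col5a3 at 0.35 and Bgn at -0.39 are the ends of the range.

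Of the 5 tested fibrillar collagens, Col5a3 and Col3a1 were called above 0 over all arrays, against 8.99% of units called above 0. All 5 means were positive, with a median of 0.14, but those of Col1a1 and Col1a2 were near 0. Col5a3, a chain of type V collagen, which regulates fibril width, had 0.19 and 0.38 at 1 week of CCH, 0.32 and 0.36 at 2 weeks and 1.21 and 0.68 at 4 weeks. In CIH it had 0.01 and -0.03, then 0.86 and 0.75, then 1.08 and 0.03, and in controls 1.07 and -0.16, then -0.38 and -0.27, then 0.02 and 0.12. All 6 CCH arrays were above 0, and their range overlapped that of the controls. The mean was 0.35 ± 0.084 (SE, limma adjusted p = 0.00900), a 1.27-fold ratio, above 0 on 14 of 18 arrays, and it lost its call only with the arrays scaled to a common spread (adjusted p = 0.0505). Within CCH the mean was 0.53 ± 0.15 (SE, limma adjusted p = 0.0353). Minus control the difference was 0.46 ± 0.21 in CCH (adjusted p = 0.749) and 0.38 ± 0.21 in CIH (adjusted p = 0.440), neither called by limma. Without CIH 1 week replicate 1 and CIH 4 weeks replicate 1 the CIH difference was 0.20.

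Col3a1, type III collagen of compliant fibrils, averaged 0.16 ± 0.33 in CCH, 0.15 ± 0.18 in CIH and 0.26 ± 0.53 in controls (SD, n = 6 each). Its mean over all arrays was 0.19 ± 0.063 (SE, limma adjusted p = 0.0390), and leaving out any 1 of 12 arrays ended the call, as did 5 other settings. Col1a1 and Col1a2, the chains of type I collagen, the bulk of the scar, had means of 0.0052 and 0.039 over all arrays. Neither was called. Col1a1 ranged between -0.33 and 0.82 in CCH, -0.26 and 0.25 in CIH and -0.28 and 0.56 in controls, so its spread exceeded any shift. Col5a2, the partner of the main type V chain, averaged 0.14 ± 0.050 (SE, limma adjusted p = 0.0539), just above the threshold. Col27a1 reached 1.66 on CCH 4 weeks replicate 1, where Col2a1, the cartilage collagen, reached 1.27, and both rested on few arrays at 4 weeks. Col11a1 was above 0 on 8 of 11 arrays.

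Among the other collagens the averaged ratio of Col6a1 stood apart in regularity, though its 3 spots disagreed, with means between -0.71 and 0.0054. Col6a1 encodes a chain of type VI collagen, the microfibril next to the myocyte basement membrane. Its ratio was -0.46 and -0.35 at 1 week of CCH, -0.33 and -0.45 at 2 weeks and -0.47 and -0.44 at 4 weeks. CIH gave -0.53 and -0.79, then -0.08 and -0.24, then -0.45 and -0.52, and controls gave -0.02 and -0.21, then -0.30 and -0.53, then -0.20 and -0.09. It was below 0 on 18 of 18 arrays, and all 6 CCH values lay in a narrow band inside the range of the CIH and control values. Over all arrays the mean was -0.36 ± 0.045 (SE, limma adjusted p = 0.000172), a ratio of 0.780, and no alternative ended that call. CCH minus control was -0.19 ± 0.11 (limma adjusted p = 0.749) and CIH minus control -0.21 ± 0.11 (limma adjusted p = 0.423).

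Col6a3, another type VI chain, ran between -0.69 and 0.43 over all arrays without a call (mean -0.029). Col6a6 ran between -0.79 and 0.40, and Col14a1, a fibril-associated collagen, between -1.05 and 0.49. Col22a1, a collagen of tissue junctions, differed by -0.37 ± 0.19 for CIH minus control (SE, limma adjusted p = 0.416). Col9a3 and Col23a1 had means of 0.092 and -0.0025. Of the 7 tested genes of this class 1 was called, below 0, or 14.3%, against 18.7% of units called below 0. The basement membrane chains Col4a1 and Col4a2 share a promoter region and a trimer but differed in spread: Col4a1 stayed between -0.51 and 0.39 and Col4a2 ran between -1.17 and 1.21. The CIH minus control difference of Col4a2 was -0.44 ± 0.21 (SE, limma adjusted p = 0.400) and CCH minus CIH 0.56 ± 0.21 (limma adjusted p = 0.360). At 4 weeks of CIH, Col4a2 had a value only on CIH 4 weeks replicate 1, so it could not be tested without that array.

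Of the 6 laminins, 1 was called, 16.7% against 27.7% of units. Lama2, the alpha chain of the laminin that anchors striated muscle cells, was below 0 on 14 of 18 arrays, with a mean of -0.16 ± 0.050 (SE, limma adjusted p = 0.0287). Leaving out any 1 of 10 arrays ended that call. CCH values of Lama2 lay between -0.75 and 0.02, CIH values between -0.28 and 0.04 and control values between -0.24 and 0.21. Lama4, the alpha chain of vessels, spanned 0.97 on CCH 1 week replicate 1 and -0.82 on CIH 2 weeks replicate 2. Lamb1, Lamb2 and Lamc1, the shared beta and gamma chains, had means of 0.064, 0.034 and 0.027 over all arrays. Lama5 averaged -0.18 ± 0.072 (SE, limma adjusted p = 0.0706).

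In the elastic fibre class Fbn2 and Eln parted. Fbn2 encodes fibrillin 2, a microfibril protein best known from the developing heart and vessels. It had -0.55 and -0.39 at 1 week of CCH, -0.02 and -0.26 at 2 weeks and -1.64 and -0.98 at 4 weeks. In CIH its values were -0.21 and -0.65, then -0.04 and -0.19, then -0.35 and -0.41, and in controls 0.10 and -0.01, then 0.05 and -0.24, then -0.26 and -0.56. All CCH and CIH arrays were below 0, and the lowest were the 2 CCH arrays of 4 weeks. The mean over all arrays was -0.37 ± 0.058 (SE, limma adjusted p = 0.000783), and within CCH -0.64 ± 0.10 (limma adjusted p = 0.00279). CCH minus control was -0.49 ± 0.14, the smallest p of the 42 genes in that comparison, with 5 of 6 CCH arrays lower, yet the limma adjusted p was 0.699. Its 4 spots disagreed: their means over arrays were -0.65, -0.50, 0.042 and 0.16. Not every spot had a value on every array. With only its spot with the most values, the 4-week minus 1-week difference over the conditions was no longer below 0. Fbn2 kept its calls over all arrays and within CCH in that setting. The part of missing spots in the low CCH values at 4 weeks was not tested.

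Eln, elastin itself, was at 1.17 and 1.89 at 4 weeks of CCH and at -0.01 and -0.11 at 4 weeks of CIH, against 0.56 and 0.89 in the 4-week controls. At 2 weeks of CCH it was at -0.51 and -0.86, so its ratio changed sign with duration. The mean over all arrays was 0.14 ± 0.083 (SE, limma adjusted p = 0.218). Fbln7, a cell-adhesive fibulin, ran between -1.18 and 0.68 and was not called.

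Of the 7 proteoglycans and glycoproteins, Bgn and Dcn were called, 28.6% against 27.7% of all units, so the class was called about as often as the array. All 7 had a negative mean, with a median of -0.14, where 59.3% of units were negative with a median of -0.040. Bgn, biglycan, an X-linked proteoglycan that binds collagen, had -0.30 and -0.47 at 1 week of CCH, -0.09 and -0.54 at 2 weeks and -1.06 and -0.61 at 4 weeks. CIH gave -0.50 and -0.67, then -0.55 and -0.14, then -0.78 and -0.35, and controls gave -0.18 and -0.20, then -0.16 and 0.08, then -0.37 and -0.17. The ratio was below 0 on 17 of 18 arrays. The hypoxia arrays reached lower than any control array while the ranges overlapped, and the spread of all ratios also reached higher in hypoxia. The mean of Bgn was -0.39 ± 0.058 (SE, limma adjusted p = 0.000562), a ratio of 0.762, and no alternative ended the call. CCH minus control was -0.34 ± 0.14 (limma adjusted p = 0.749) and CIH minus control -0.33 ± 0.14 (limma adjusted p = 0.343), with all 6 arrays of each hypoxia below the control mean of the same duration.

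Dcn, decorin, which coats type I collagen and binds TGF-beta, followed no single direction. It was at -1.31 and -0.87 at 1 week of CCH, 0.26 and 0.13 at 2 weeks and -0.65 and -0.41 at 4 weeks. CIH gave -0.48 and -0.38, then 0.07 and 0.41, then -0.38 and -0.71, and controls gave 0.27 and 0.20, then -0.37 and -0.59, then -0.27 and -0.07. Both hypoxias were thus below the controls at 1 week and above them at 2 weeks. At 1 week CCH minus control was -1.33 ± 0.22 (SE, limma adjusted p = 0.241), which of all the settings tried passed only under quantile normalization, and at 2 weeks 0.67 ± 0.22 (limma adjusted p = 0.498). CIH minus control was -0.67 ± 0.22 at 1 week (limma adjusted p = 1.00) and 0.72 ± 0.22 at 2 weeks (limma adjusted p = 0.122). The limma F test of whether the hypoxia differences changed with duration gave Dcn the smallest adjusted p of the matrix genes, 0.380, on a single spot. Its mean over all arrays, -0.29 ± 0.052 (SE, limma adjusted p = 0.00190), was called with 12 of 18 arrays below 0.

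Lum, lumican, a proteoglycan that spaces collagen fibrils, averaged -0.33 ± 0.27 in CCH, -0.084 ± 0.19 in CIH and -0.0029 ± 0.23 in controls (SD, n = 6 each). Within CCH it was called below 0 (limma adjusted p = 0.0427), and leaving out any 1 of 12 arrays ended that call. Mgp, matrix Gla protein, an inhibitor of calcification, averaged -0.43 ± 0.53 in CCH, -0.22 ± 0.26 in CIH and -0.026 ± 0.27 in controls (SD, n = 6 each), and Fn1, fibronectin, -0.33 ± 0.45, -0.12 ± 0.26 and 0.047 ± 0.31 in the same conditions. The limma differences of CCH minus control were -0.41 ± 0.20 for Mgp, -0.38 ± 0.18 for Fn1 and -0.29 ± 0.14 for Sparc, a collagen-binding glycoprotein (SE, adjusted p = 0.749 each). Tnc, tenascin C, a glycoprotein of injured tissue, had 0.084 ± 0.19. The CCH minus control median of the 7 genes was -0.34, against -0.036 over all units, and 6 of the 7 were negative.

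**Figure D3:**
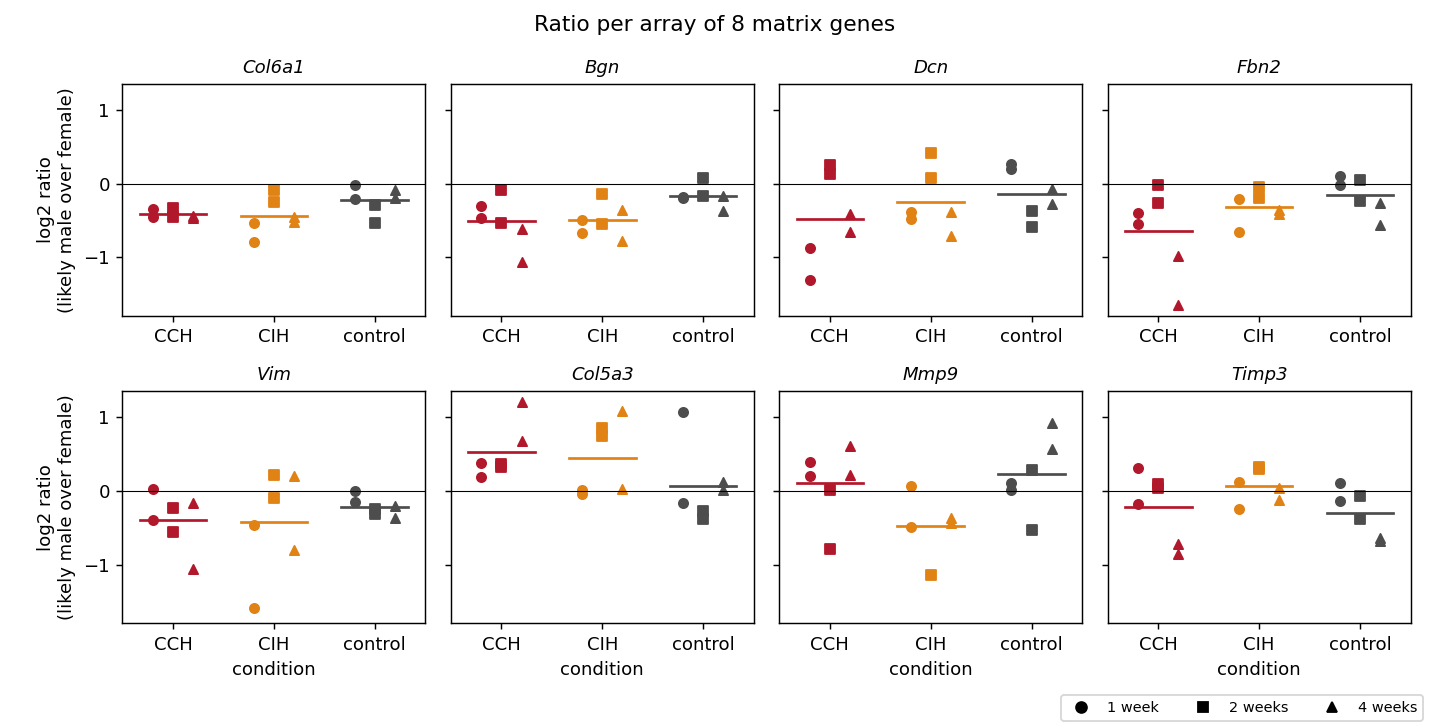
Log2 ratio (likely male over female) of 8 matrix genes on each array, in columns for CCH, CIH and control, with the duration as the symbol and the mean of the 6 arrays (5 for Mmp9 in CIH) as a line. The Col6a1 points of all 3 conditions lie below 0, and the Dcn points of CCH at 1 week, -1.31 and -0.87, lie far under those at 2 weeks.

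The metalloproteinases and their inhibitors gave small shifts over all arrays. Mmp24, a membrane-bound enzyme, averaged -0.19 ± 0.061 (SE, limma adjusted p = 0.0325), with 9 of 17 arrays below 0, 1 of 6 at 1 week, 4 of 6 at 2 weeks and 4 of 5 at 4 weeks. Mmp23 averaged -0.13 ± 0.046 (SE, limma adjusted p = 0.0436) and Timp3, the inhibitor that binds to the matrix, -0.15 ± 0.052 (SE, limma adjusted p = 0.0491). Leaving out any 1 of 10 arrays ended the call of Mmp24, and any 1 of 14 arrays that of Mmp23 or of Timp3. Mmp2, gelatinase A, and Timp2, its partner, were not called, with means of -0.12 and -0.017.

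Mmp9, gelatinase B, an enzyme of leukocytes as well as of the heart, came nearest to a call in CIH. It had -0.49 and 0.06 at 1 week of CIH, -1.13 on 1 array at 2 weeks and -0.36 and -0.43 at 4 weeks. Controls had 0.11 and 0.01, then -0.52 and 0.29, then 0.92 and 0.57. CIH minus control was -0.81 ± 0.20 (SE, limma adjusted p = 0.0634), with 4 of 5 CIH arrays lower and the ranges overlapping. Over all alternatives the adjusted p lay between 0.0210, without control 2 weeks replicate 1, and 0.564, and it was under 0.05 also without CCH 2 weeks replicate 1 or 2 or CIH 1 week replicate 2, without centring and with the spot with the most values. Mmp9 has 1 spot, so that last setting left its own values unchanged and adds no support. Without CIH 1 week replicate 1 and CIH 4 weeks replicate 1 the difference was -0.73 ± 0.23 (SE, limma adjusted p = 0.477). CCH minus CIH was 0.69 ± 0.20 (limma adjusted p = 0.184), and all 6 CCH arrays were above the CIH mean of their duration. It passed without CCH 2 weeks replicate 1 (0.82, adjusted p = 0.0488). Within CIH, Mmp9 was called below 0 (-0.58 ± 0.15 SE, limma adjusted p = 0.0251), and without CIH 1 week replicate 1 it was not (-0.49, adjusted p = 0.126), nor without CIH 4 weeks replicate 1 (-0.59, adjusted p = 0.0895).

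Timp3 had its lowest values at 4 weeks of CCH and in the controls of 4 weeks. At 4 weeks it was at -0.71 and -0.86 in CCH, 0.04 and -0.12 in CIH and -0.63 and -0.67 in controls, so CIH stayed near 0 where CCH and controls lay well below. At 1 week the 6 arrays lay between -0.25 and 0.32. CIH minus control was 0.36 ± 0.13 over the 3 durations (SE, limma adjusted p = 0.218) and 4 weeks minus 1 week -0.49 ± 0.13 (limma adjusted p = 0.238). Without CIH 1 week replicate 1 and CIH 4 weeks replicate 1 the CIH minus control difference was 0.28. Timp4, the inhibitor most abundant in heart, was at -0.70 and -0.69 at 1 week of CCH and 0.65 and 0.31 at 4 weeks, with no value at 2 weeks. Mmp19 was below 0 on 12 of 13 arrays.

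Of the cross-linking enzymes, Loxl1, which acts on elastin, was below 0 on all 6 CCH arrays (lowest -0.93, median -0.22, highest -0.17), on 5 of 6 CIH arrays (lowest -0.94, median -0.23, highest 0.02) and on 3 of 6 control arrays (lowest -0.35, median -0.02, highest 0.24). Its mean over all arrays was -0.26 ± 0.073 (SE, limma adjusted p = 0.0183), which was not called without CIH 1 week replicate 1 and CIH 4 weeks replicate 1 (-0.18, adjusted p = 0.0814). Loxl2 averaged -0.11 ± 0.048 (SE, limma adjusted p = 0.109). Lox had values on 11 arrays, between -0.62 and 0.45.

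Of the 4 fibroblast genes 1 was called, 25% against 27.7% of units. Vim, vimentin, the intermediate filament of mesenchymal cells and leukocytes, had a lowest value of -1.05 in CCH, a median of -0.32 and a highest of 0.03. CIH gave -1.58, -0.27 and 0.22, and controls gave -0.37, -0.22 and 0.0049. The mean over all arrays was -0.34 ± 0.090 (SE, limma adjusted p = 0.0138), and no alternative ended the call. Pdgfra, a growth factor receptor of fibroblasts, Tcf21, a transcription factor of their lineage, and Ddr2, a collagen receptor, had means of 0.034, 0.073 and -0.055 and were not called.

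Split by condition, Bgn and Col6a1 were called below 0 in both hypoxias. In CCH limma called 7 of 42 genes (Fbn2, Col6a1, Dcn, Bgn, Mmp24 and Lum below 0, Col5a3 above), 16.7% against 10.8% of all units. In CIH it called Col6a1 (-0.44), Bgn (-0.50) and Mmp9 (-0.58), 7.14% against 12.1% of all units, and 0 genes without CIH 1 week replicate 1 and CIH 4 weeks replicate 1, against 0.05% of units. In controls limma called 0, against 0.00974% of all units, and 3 genes had an unadjusted p under 0.05 (Timp3 at -0.29, Col6a1 at -0.22 and Col3a1 at 0.26), 7.14% against 9.15%. The CCH count was 2, Dcn and Fbn2, without CCH 2 weeks replicate 2 (2.04% of units), 3 without CCH 4 weeks replicate 1 (2.45%) and 4 without CCH 1 week replicate 2 (3.27%) or CCH 2 weeks replicate 1 (2.75%). The CIH count was 1 (Col6a1) without CIH 4 weeks replicate 1 (2.05% of units) and 6 without CIH 4 weeks replicate 2 (22.3%). The spread of ratios ran lower in controls than in either hypoxia. The CCH count with the arrays scaled to a common spread is given at the end. A call in one condition and none in another does not show that they differ, and the direct comparisons follow.

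Set against controls, no matrix gene passed the test in either hypoxia, and the largest differences were those of Fbn2, Col5a3 and Mgp in CCH and of Mmp9, Col4a2 and Eln in CIH. That of Col4a2 rested at 4 weeks of CIH on CIH 4 weeks replicate 1 alone. For CCH minus control limma called 0 of 42, and 0% of all units, and 6 genes had an unadjusted p under 0.05 (Fbn2, Dcn, Bgn, Mmp24 and Lum lower, Col5a3 higher), 14.3% against 6.32% of units. For CIH minus control it called 0, against 0.00974% of units, and Mmp9, Timp3 and Bgn had an unadjusted p under 0.05, 7.14% against 12.7%. The medians of the matrix genes were -0.14 in CCH and -0.11 in CIH, against -0.036 and -0.0066 over all units, and 33 and 31 of the 42 genes were negative, 78.6% and 73.8% against 57.1% and 50.9% of units. Both comparisons share the control arrays, so their agreement in sign is not independent. For no gene were the arrays of either hypoxia and the controls without overlap, against 0.185% of units in CCH and 0.438% in CIH. The median SE of a gene was 0.16, so shifts of that size were not detectable with these arrays. Far larger ones also went uncalled, such as -0.49 for Fbn2 in CCH and -0.81 for Mmp9 in CIH. A lack of calls therefore does not exclude changes well above the median SE.

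**Figure D4:**
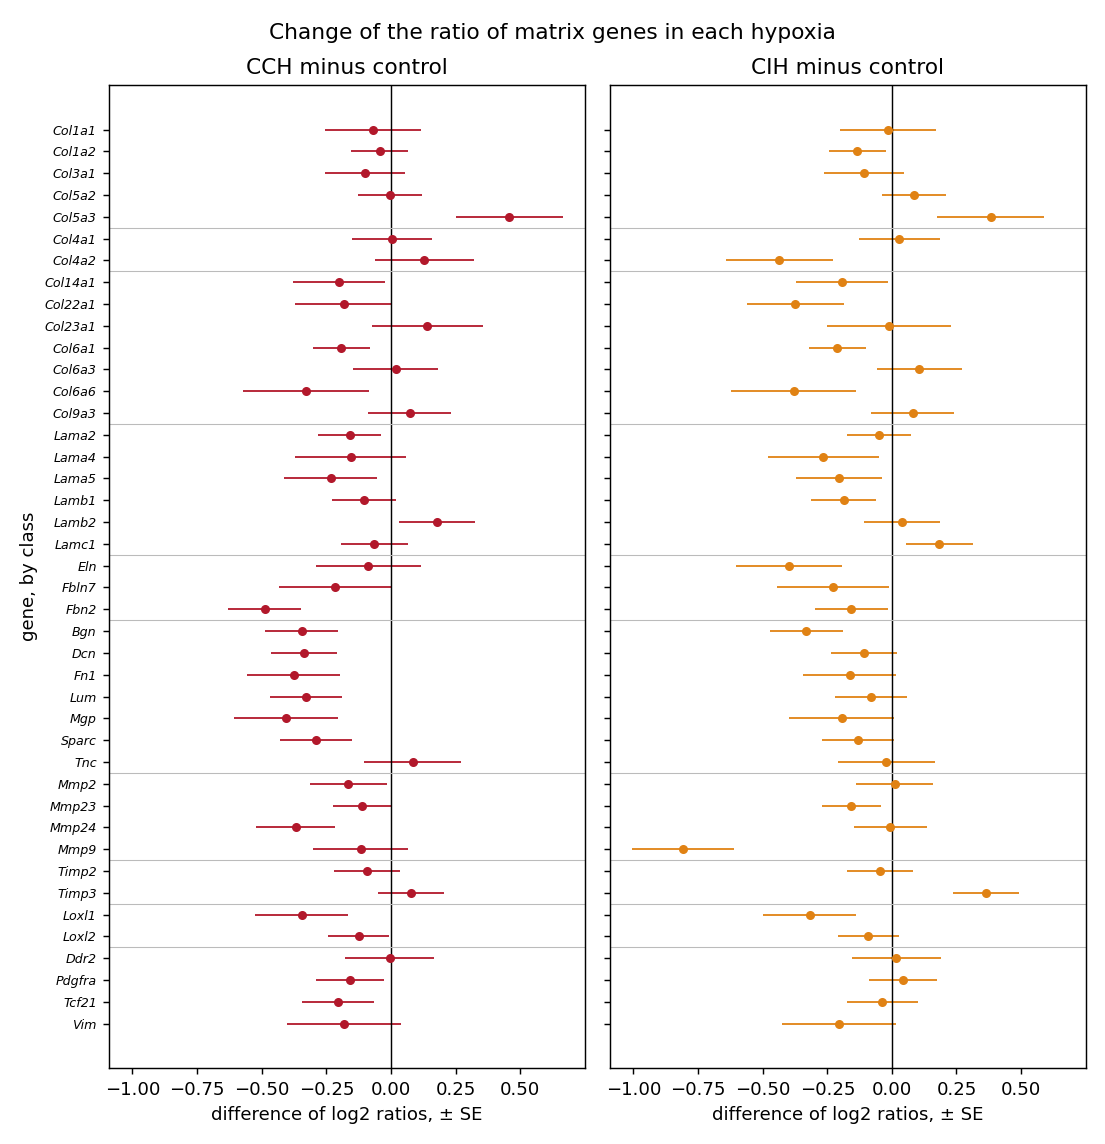
Difference of the mean log2 ratio for CCH minus control (left) and CIH minus control (right) for the 42 tested genes by class, with bars of 1 SE from limma. Most points lie left of 0, at medians of -0.14 and -0.11, and none has an adjusted p under 0.05.

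Between the 2 hypoxias the largest differences were those of Mmp9 and Col4a2, the latter with only CIH 4 weeks replicate 1 at 4 weeks of CIH. CCH minus CIH gave 0 calls by limma, against 0.00974% of units, and 5 genes at an unadjusted p under 0.05 (Mmp9 and Col4a2 higher, Mmp24, Fbn2 and Timp3 lower), 11.9% against 9.28%. The median of the 42 genes was -0.022, against -0.026 over all units.

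The largest differences by duration were those of Eln, Mmp24 and Timp3. Averaged over the 3 conditions, 4 weeks minus 1 week gave 0 calls by limma, against 0% of units, and 9 genes at an unadjusted p under 0.05, 21.4% against 9.61%. Col1a2 averaged -0.037 ± 0.21 at 1 week, -0.23 ± 0.24 at 2 weeks and 0.38 ± 0.24 at 4 weeks (SD, n = 6 each), and all 6 arrays of 4 weeks were above 0. Its 4-week minus 1-week difference was 0.42 ± 0.11 (SE, limma adjusted p = 0.238). Eln averaged 0.036 ± 0.43, -0.35 ± 0.42 and 0.73 ± 0.76 at the same times, with a difference of 0.69 ± 0.20 (SE, limma adjusted p = 0.295). Sparc differed by 0.38 ± 0.14 (limma adjusted p = 0.402) and Mmp24 by -0.58 ± 0.15 (limma adjusted p = 0.245). The difference of Fbn2 was -0.42 ± 0.14 (limma adjusted p = 0.356) and turned to 0.029 when only its spot with the most values was used. The arrays of 4 weeks had fewer spots with a value and a wider spread of ratios (median absolute deviations 0.31 to 0.72) than those of 1 week (0.24 to 0.47), and the part of this in the duration differences was not tested.

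At single durations limma called no matrix gene in either hypoxia. The share of all units called was 0% at 1 week of CCH, 0.0195% at 2 weeks and 0% at 4 weeks, and 0%, 0.00974% and 0% at the same times of CIH. At an unadjusted p under 0.05 there were 5, 3 and 8 of the 42 genes in CCH at 1, 2 and 4 weeks, against 6.15%, 9.38% and 15.1% of units. In CIH there were 5, 11 and 7 of the 42, against 2.34%, 22.7% and 8.14%. At 4 weeks of CCH the smallest p-values belonged to Fbn2 (-0.91 ± 0.24 SE, limma adjusted p = 0.150), Fn1 (-0.91 ± 0.31, adjusted p = 0.234) and Lama2 (-0.57 ± 0.21, adjusted p = 0.268). The Fbn2 value averages spots that disagreed and were not all present on each array, and the part of this in its difference was not tested. With only its spot with the most values, the 4-week minus 1-week difference of Fbn2 over the conditions was no longer below 0. At 2 weeks of CIH the smallest p-values belonged to Col5a2 (0.81 ± 0.21 SE, limma adjusted p = 0.117), Lama5 (-0.96 ± 0.29, adjusted p = 0.122) and Dcn. Col5a2 was at 0.24 and 0.73 there, against -0.14 and -0.52 in controls. The F test of the hypoxia differences over duration called 0 genes, against 0% of units, and 7 had an unadjusted p under 0.05, 16.7% against 12.8%.

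Spots of one gene often disagreed, which bears on each of these averages. Of 25 genes with several spots on 9 or more arrays, 9 had spot means of one sign, and the correlation between spots of a gene had a median of 0.17 (range -0.36 to 0.78). Col6a1 had spot means of -0.71, -0.38 and 0.0054, the first pair negative on 18 of 18 arrays each and the last on 9. Bgn had -0.52, -0.33 and -0.32, and Col5a2 had 4 spots between 0.081 and 0.20. The Fbn2 spots below 0 had values on 18 and 11 arrays and those above it on 8 and 13. The 5 spots of Pdgfra ran between -0.61 and 0.28, and the 4 of Col3a1 between -0.064 and 0.41. Col5a3, Dcn, Vim, Loxl1, Mmp24 and Mmp9 rested on 1 spot each.

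**Figure D5:**
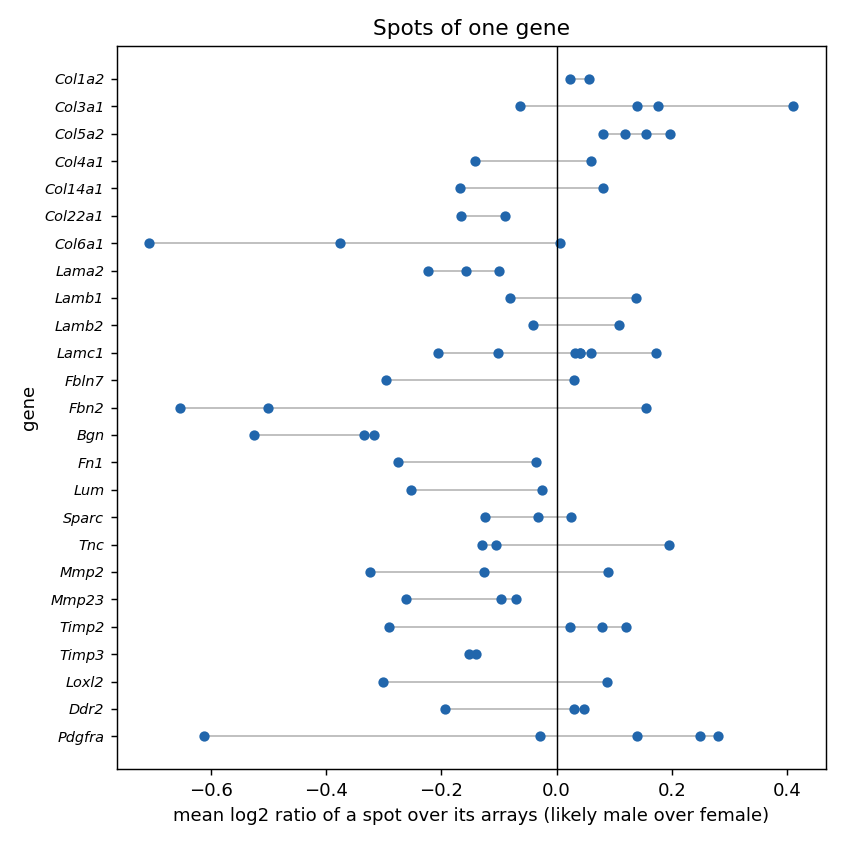
Mean log2 ratio of each spot over its arrays (likely male over female) for the 25 genes with several spots on 9 or more arrays; a line joins the spots of a gene. The spots of Col5a2 and Timp3 lie close together and those of Pdgfra and Col6a1 far apart.

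Genes that process, bind or regulate the matrix, from lists chosen with results of these data known, were measured on the same arrays. Over all arrays limma called 27.7% of units and 18.7% below 0, the shares to set beside each list. Of 13 tested genes of collagen processing it called 15.4%, both below 0: Pcolce (-0.35 ± 0.066 SE, adjusted p = 0.00215), an enhancer of procollagen cleavage, and Plod1 (-0.29 ± 0.083, adjusted p = 0.0191), a collagen lysyl hydroxylase. Of 17 other matrix glycoproteins and proteoglycans it called 6 (35.3%), all below 0, among them Smoc2 (-0.35), Mfap4 (-0.32), Emilin1 (-0.26) and Fmod (-0.18). Of 12 genes of TGF-beta signalling and fibroblast activation it called 5 (41.7%): Smad2 (0.46), a signal transducer, Ccn1 (0.36) and Tgfbr3 (0.25) above 0, and Ltbp4 (-0.36) and Pdgfrb (-0.22) below it. Of 11 matrix receptors it called 2 (18.2%): Cd44 (0.27), a receptor for hyaluronan, above 0 and Itgb5 (-0.20), an integrin chain, below it. Across the CCH and CIH comparisons with controls, 0 genes of these 4 lists were called by limma, and the smallest adjusted p-values were 0.0686 for Pdgfrb (-0.63 ± 0.16 SE) and 0.0790 for Mfap4 (-0.66 ± 0.18) in CIH.

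Markers of other cell types were read on the same arrays. All 12 tested leukocyte and macrophage markers had a mean below 0 over all arrays, with a median of -0.25, and limma called 6, 50% against 18.7% of units called below 0, among them C1qa (-0.64), C1qb (-0.37), Lyz2 (-0.37) and Tyrobp (-0.33). Their median per array lay between -0.61 and -0.095 in CCH, -0.60 and -0.15 in CIH and -0.55 and 0.10 in controls. For CCH minus control 11 of the 12 were negative with a median of -0.21, beside -0.14 for the matrix genes, and for CIH minus control 8 were negative with a median of -0.093, beside -0.11, with C1qa at -0.85 (limma adjusted p = 0.109) and 0 of the 12 called in either. Vim and Mmp9 are also transcribed by leukocytes, and the part of leukocytes in the ratios of the matrix genes was not tested. CIH against 0 was the test that called Col6a1, Bgn and Mmp9. There limma called 4 of the 6 tested red-cell markers below 0 (66.7%), with a median of -1.02. The share of all units called, in either direction, was 12.1%, and 0.05% without CIH 1 week replicate 1 and CIH 4 weeks replicate 1. In CCH and in controls limma called 0 of the red-cell markers, against 10.8% and 0.00974% of units. For CIH minus control 4 were negative and limma called 0, with Slc4a1 at -1.74 ± 0.37 (SE, adjusted p = 0.0521) and Alas2 at -1.73 ± 0.44 (SE, adjusted p = 0.0661). Endothelial markers (1 of 8 called, below 0) and smooth muscle and pericyte markers (2 of 4 called, below 0, of which Pdgfrb is also in the TGF-beta list) had medians of 0.030 and -0.11 over all arrays. The 3 tested cardiomyocyte markers lay between 0.084 and 0.25 and were not called. Over all arrays 2 of 6 skeletal muscle markers were called, below 0, and of the lung, adipocyte and epicardial markers (2, 2 and 3 tested) none was. In CIH against 0, limma called 2 of the 3 epicardial markers (66.7%) and 2 of the 4 smooth muscle and pericyte markers (50%). The share of all units there was 12.1%. For CIH minus control the epicardial markers Wt1, Krt19 and Msln were at -0.61, -0.40 and -0.34, and limma called 0 of them.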

How the data were processed

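The authors deposited log2 ratios of the Cy5 and Cy3 signals, 1 for each of 28704 spots on each of 18 arrays, with gaps. The linear ratio averages 1 on every array, which settled the base and the scaling from the values. Background correction, spot filters and normalization are not given in the sources used here. By the platform annotation, which can be old, 18511 spots carried 1 gene symbol, 937 several and 9256 none, and 6 spots of 4 labels that pair a matrix gene with another symbol were left out.

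Each array was centred on its median, spots of a symbol were averaged, and the 10272 units present in all 9 groups entered a limma 3.58.1 model (R 4.3.3, 9 group means, moderated two-sided tests, prior degrees of freedom 5.95, Benjamini-Hochberg adjustment over all units, threshold 0.05). With gaps, the fitted mean of 9 groups differs from the plain mean over arrays. Counts of arrays in a direction refer to the sign of the ratio against 0, or, in a difference, to how many arrays of the named condition lay on that side of the other condition's mean for their duration.

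The genes, classes and lists were chosen with earlier results of these data known. In each comparison the genes past the threshold were named, filled to 5 by smallest p, together with the main genes of each class and, per pathway or marker list, up to 4 genes past the threshold or 2 otherwise. The alternatives were no centring, quantile normalization, a common spread, other filters on missing values, the spot with the most values, an additive model, array weights, the A and B letters of the titles as a replicate block, regrouping or leaving out CIH 1 week replicate 1, and leaving out each array. Promoter sequences are RefSeq GRCm38.p6. The scripts were tested on simulated data, and figures were drawn with matplotlib 3.10.9. The letters in the titles did not pair the arrays: over 36 pairs of groups the correlation of same-letter deviations lay between -0.51 and 0.44.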

Additional observations from a re-analysis of the deposited data

Results flagged for a closer look

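In 5 of 33 sets of 6 arrays (10 classes and all genes together, in 3 conditions), 1 array's class median lay apart from the other 5 by a gap that was large for the whole range (Dixon's test at 95%), and chance alone marks about 1 set in 20. The median of the fibrillar collagens was 0.36 on CIH 2 weeks replicate 2, above the other CIH arrays. The laminin median was 0.22 on CIH 4 weeks replicate 2. The elastic fibre median, over 3 genes, was 0.28 on CIH 1 week replicate 2 and 0.56 on control 4 weeks replicate 1. The Lox family median was -0.15 on control 2 weeks replicate 2, below the other control arrays.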

How the results depend on the processing

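Counts of called genes are given with the share of all units called under the same setting, apart from most of the ranges over arrays left out in turn. That share changed too when an array was left out. Over all arrays the count of 12 genes (27.7% of units) was 6 (16.7%) without CIH 1 week replicate 1 and CIH 4 weeks replicate 1. The CCH count of 7 (10.8%) was 12 (17.4%) without centring, 4 (3.51%) with quantile normalization, 4 (1.94%) with a common spread, 3 (6.43%) in the additive model and 11 (16.2%) with CIH 1 week replicate 1 regrouped as CCH. The CIH count of 3 (12.1%) was 7 (16.7%) without centring and 0 (0.05%) without both arrays. CIH minus control gave 1 gene, Mmp9, without centring (1.87%) and with the spot with the most values (2.29%), and CCH minus control at 1 week gave 1, Dcn, with quantile normalization (0.00974%). Mmp9 has 1 spot, so the choice of spot left its own values unchanged. Between conditions hardly any unit of the array passed, so a count of 0 there says nothing of stability. The 4-week minus 1-week difference of Fbn2 turned to 0.029 with the spot with the most values and with spots on 14 or more arrays. Leaving out each array in turn gave 7 to 13 genes over all arrays (7 without CCH 2 weeks replicate 2, CIH 1 week replicate 2 or CIH 2 weeks replicate 2, with 21.9%, 23.8% and 20.6% of units), 2 to 8 in CCH, 1 to 6 in CIH, 0 to 1 in CIH minus control and in CCH minus CIH, and 0 in every other comparison; the median over the genes then lay between -0.10 and -0.05 over all arrays, -0.19 and -0.07 in CCH minus control, -0.14 and -0.06 in CIH minus control, -0.09 and 0.06 in CCH minus CIH, and -0.02 and 0.11 in 4 weeks minus 1 week. With a replicate block on the title letters, which the array correlations do not bear out as a pairing, the counts were 11 (26.7%) over all arrays, 6 (10%) in CCH and 4 (11.7%) in CIH. Of 1298 further values for 44 named results, 1150 kept direction and side of the threshold, 131 lost a call, 15 gained one and 2 reversed. Many of the 44 were not called to begin with, and a result that stayed uncalled counts as kept. The share kept is therefore no measure of the stability of the calls. The causes of the changes were not tested. Leaving out both arrays and requiring spots on 14 arrays were chosen after seeing the data. With 2 arrays a group, disagreeing spots and no stated signal over background, shifts near the median SE could not be told from 0. Between conditions far larger ones were not called either.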
